A study of Mus musculus with 38 samples.

Results

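The apolipoprotein genes Apoa1, Apoc3, Apoa4 and Apoa5, the genes Apoe, Apoc1, Apoc4 and Apoc2, and the gene Apob were described across 6 histone marks in livers of male and female mice. All peaks that overlapped 1 of 3 windows by 1 bp or more were taken. In the mouse genome build mm9 the windows were chr9:46010000-46100000 for the Apoa1 group (the Apoa cluster), chr7:20230000-20310000 for the Apoe group (the Apoe cluster) and chr12:7960000-8040000 for Apob. They held 159 of the 384017 peaks in the 12 lists, of which 67 lay in the Apoa cluster, 65 in the Apoe cluster and 27 at Apob.

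Livers of CD-1 mice, an outbred stock, were taken from males and from females at 8 weeks of age, and no treatment or engineered allele is given for either sex in the labels. Chromatin immunoprecipitation and sequencing was done for H3K4me3, with 4 male and 3 female libraries, for H3K27ac, with 3 of each sex, for H3K4me1, with 4 male and 3 female, for H3K36me3, with 2 of each sex, for H3K27me3, with 3 of each sex, and for H3K9me3, with 2 of each sex. Every mark has 1 deposited list of peaks per sex that stands for all its libraries, so there was no spread between animals and no test between them could be made. The only comparison of the sexes is the one in the authors' deposited table, where each peak has the log2 of its signal in males over that in females, together with a p-value and a call, and a call there requires a log2 ratio of at least 1 in either direction with a p below 0.001.

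Apolipoproteins are the protein coat of the particles that carry cholesterol and triglycerides in blood, and the liver is their main source together with the intestine. ApoB is the large structural protein around which very low density lipoprotein is built, and ApoA-I is the main protein of high density lipoprotein. ApoA-V, ApoC-II and ApoC-III act on the breakdown of triglycerides by lipoprotein lipase, the first as an enhancer, ApoC-II as the cofactor and ApoC-III as an inhibitor, and ApoE is the ligand by which remnant particles are taken up by liver receptors. H3K4me3 lies at active promoters, H3K4me1 at enhancers and promoter flanks, H3K27ac at active promoters and enhancers, and H3K36me3 along transcribed gene bodies, while H3K27me3 and H3K9me3 lie over silent chromatin.

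The start sites of 6 of the 9 genes could be placed on mm9. On chromosome 9 the plus-strand starts were at position 46036714 for Apoa1, 46048928 for Apoa4, and 46076692 and 46076717 for Apoa5. On chromosome 7 the minus-strand starts were at 20266810 for Apoc4 and at 20284538, 20283971 and 20283748 for Apoe, and on chromosome 12 the plus-strand start of Apob was at 7984484. Apoc3, Apoc1 and Apoc2 were not placed and are known here only by the gene order in RefSeq (GRCm38.p6), which puts Apoc3 between Apoa1 and Apoa4, Apoc1 between Apoc4 and Apoe, and Apoc2 between Clptm1 and Apoc4. No exon or intron annotation of mm9 was used, so positions are given relative to the start sites.

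The 250 bases before the start are shown for the promoters whose marks the results turn on, that is Apoa1 and its neighbour Apoa4, which differed in H3K4me3, and Apoa5, Apoe and Apob, which had H3K4me3 in both lists. The sequences are from RefSeq (GRCm38.p6), 5′ to 3′ on the gene's strand, and capitals mark exact matches to the motifs searched. The regions are chr9:46228380-46228629 (plus strand) for Apoa1, chr9:46240594-46240843 (plus) for Apoa4, chr9:46268358-46268607 (plus) for Apoa5, chr7:19699189-19699438 (minus) for the most upstream Apoe start and chr12:7977427-7977676 (plus) for Apob.
Apoa1: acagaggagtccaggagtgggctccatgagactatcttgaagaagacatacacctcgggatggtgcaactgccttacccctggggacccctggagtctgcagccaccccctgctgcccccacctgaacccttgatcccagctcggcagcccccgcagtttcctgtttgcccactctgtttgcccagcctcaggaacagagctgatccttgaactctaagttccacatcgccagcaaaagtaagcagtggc
Apoa4: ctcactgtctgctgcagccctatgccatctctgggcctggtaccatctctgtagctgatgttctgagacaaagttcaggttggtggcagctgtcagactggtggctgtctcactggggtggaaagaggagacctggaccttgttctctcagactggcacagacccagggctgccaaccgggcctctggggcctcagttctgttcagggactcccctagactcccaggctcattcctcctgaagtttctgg
Apoa5: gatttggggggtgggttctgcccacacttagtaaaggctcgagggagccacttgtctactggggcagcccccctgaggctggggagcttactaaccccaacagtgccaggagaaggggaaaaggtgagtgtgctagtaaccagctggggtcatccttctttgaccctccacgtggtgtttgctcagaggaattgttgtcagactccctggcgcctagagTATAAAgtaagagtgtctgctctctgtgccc
Apoe: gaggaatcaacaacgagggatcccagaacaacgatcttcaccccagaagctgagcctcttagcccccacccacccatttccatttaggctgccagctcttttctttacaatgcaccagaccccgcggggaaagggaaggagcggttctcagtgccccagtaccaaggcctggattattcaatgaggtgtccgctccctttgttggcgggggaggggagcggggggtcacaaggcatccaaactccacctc
Apob: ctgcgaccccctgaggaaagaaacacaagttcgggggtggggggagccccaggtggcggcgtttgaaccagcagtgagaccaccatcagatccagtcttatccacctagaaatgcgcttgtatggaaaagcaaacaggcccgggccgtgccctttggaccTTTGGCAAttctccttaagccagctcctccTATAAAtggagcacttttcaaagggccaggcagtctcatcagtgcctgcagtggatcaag
The TATA box letters TATAAA were found at -31 from the Apoa5 start and at -60 from the Apob start, against 13.6% of all 32851 promoters of the same length. The other capitals at Apob are a match on the reverse strand, at -90, to TTGCNNAA, a motif of C/EBP type that 10.8% of promoters held. The promoters of Apoa1, Apoa4 and the most upstream Apoe start had no match to any motif searched, which included AGGTCA (nuclear receptor type, in 16.3% of promoters), CAAAGTC (HNF4 type, 4.44%), TGTTTAC (FOXA type, 3.65%), GTTAAT (HNF1 type, 7.1%), GGGCGG (GC box, 35.7%) and CCAAT (37.4%), each on both strands. The other Apoe starts, whose sequences are not shown, did have matches. TATAAA lay at -100 (reverse strand) and -96 from the start at 20283971. TGTTTAC lay at -5 and GTTAAT at -172 from the start at 20283748, both on the reverse strand. Apoc4, also not shown, had AGGTCA at -25, GGGCGG at -130 and CCAAT at -246. Apoc2, whose start was not placed on mm9, had AGGTCA at -115 and 43 and GTTAAT at -89. Overlapping matches were counted separately. From 250 bases before to 50 after the start, Apoa4 had 1 CpG, Apoa1 and Apoa5 had 4, Apob had 9 and the most upstream Apoe start had 10, against a median of 7 over all promoters.

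The loci held broad active marks and no silent islands, with less H3K27ac and H3K4me3 cover at Apob than in the clusters. H3K27ac peaks covered 54.9% of the 250 kb of the windows in the male list and 51.3% in the female list. H3K36me3 covered 49.4% in the male list and 48.8% in the female list, H3K4me1 39.3% in males and 56.5% in females, and H3K4me3 20.7% in males and 21.6% in females. By locus, H3K27ac covered 72.9% of the Apoa window in males and 81.1% in females. It covered 54.9% and 51.5% at the Apoe cluster, and 34.7% and 17.6% at Apob. H3K4me3 covered 7.05% of the Apob window in males and 8.86% in females. No H3K27me3 or H3K9me3 island touched any of the windows in either sex. Of all 12603 placed genes, 4677 had such an island within 1 kb of the start in at least 1 list, so most genes had none there. That share is for single starts. No share was computed over windows as wide as the loci, so how usual an empty window is was not measured. The nearest silent islands were H3K27me3 islands just past the Apoa cluster, 11.6 kb beyond the window in the male list and 8.8 kb beyond it in the female list. Around the Apoe cluster the nearest silent island was 117 kb away in males (H3K27me3) and 67.6 kb away in females (H3K9me3), and around Apob it was 173 kb away in males (H3K27me3) and 126 kb away in females (H3K9me3).

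**Figure D1:**
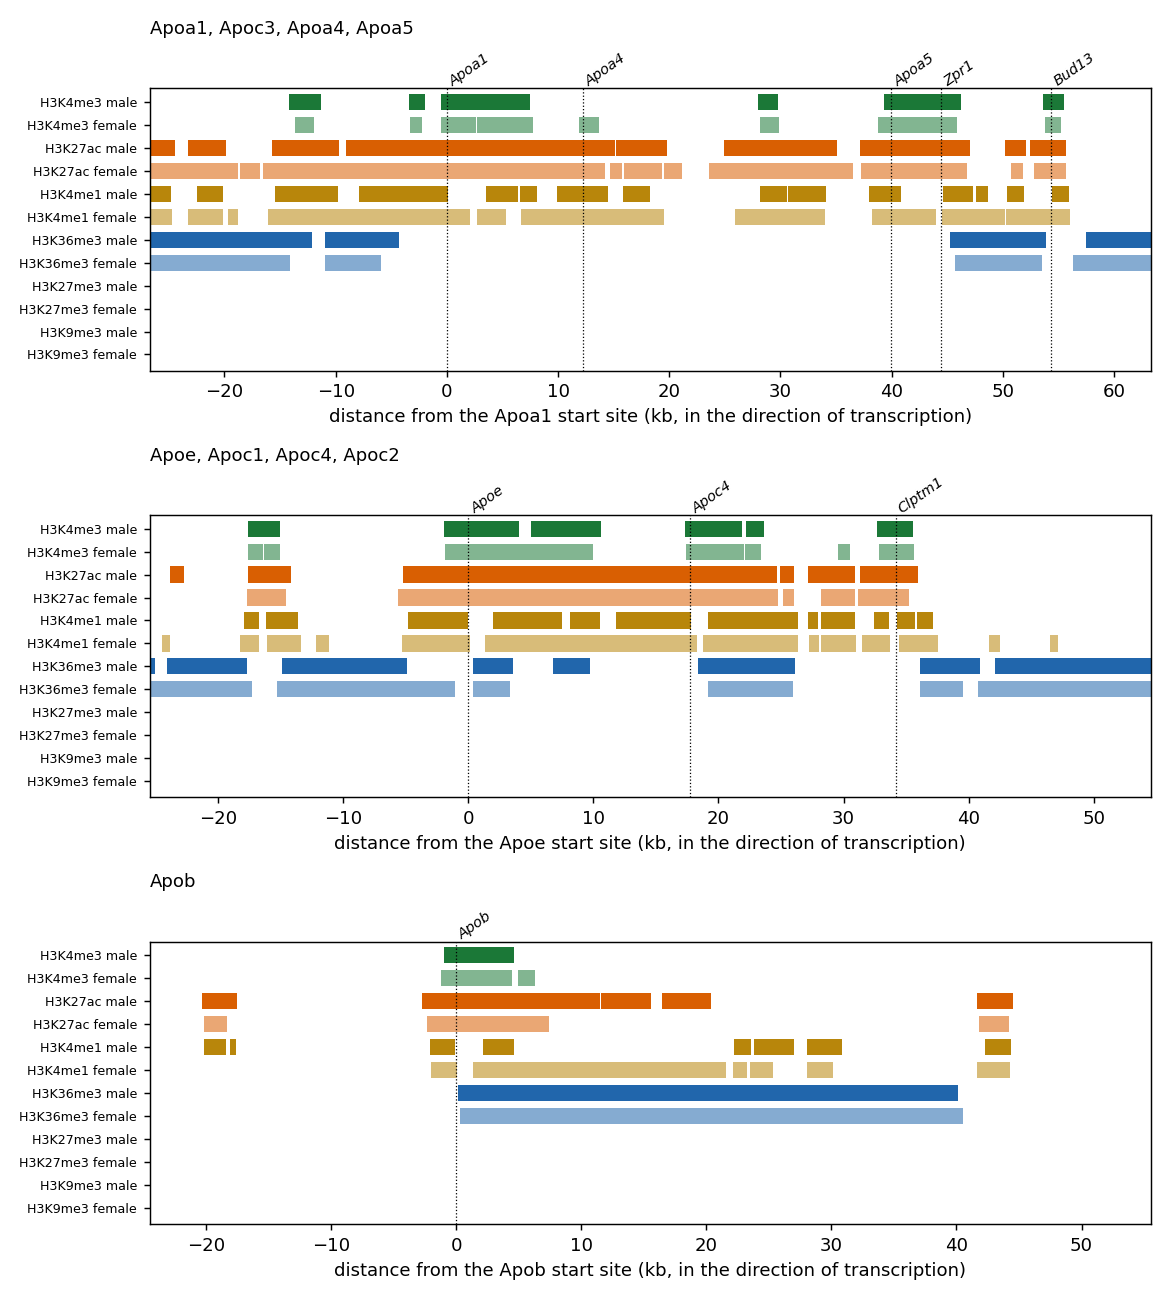
Peaks of the 12 lists (rows, male above female for each mark) along the Apoa cluster, the Apoe cluster and Apob, with the distance from the named start site in kb on the horizontal axis and placed start sites as dotted lines. H3K27ac runs unbroken over the Apoa1 and Apoa4 starts and over the Apoe and Apoc4 starts in both sexes, 1 H3K36me3 island in each list runs downstream from near the Apob start, and the H3K27me3 and H3K9me3 rows are empty.

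When the autosomes were tiled into windows of the same width, both clusters stood near the top for promoter marks. For H3K4me3, 0.0146% of 27459 windows held at least as many reads in peaks as the Apoa cluster in the male list and 0.0109% in the female list. The matching shares for the Apoe cluster were 0.0130% of 30888 windows in males and 0.00648% in females. For H3K27ac the shares were 0.0328% in males and 0.00728% in females for the Apoa cluster, and 0.100% in males and 0.130% in females for the Apoe cluster. The single-gene Apob window stood lower for H3K4me3, at 0.907% in males and 0.793% in females, and for H3K27ac, at 3.69% in males and 6.04% in females. By reads in peaks, the order turned round for H3K36me3. Only 0.816% of windows in the male list and 2.27% in the female list reached the Apob window, against 12.6% and 14.8% for the Apoa cluster and 3002 and 3089 of the 30888 windows for the Apoe cluster, male list first in each pair. By covered share of H3K36me3 the Apoe cluster stood highest. There 2200 male-list and 2252 female-list windows of 30888 reached it, against 3143 and 3339 for Apob. For the Apoa cluster they were 3734 and 4319 of 27459. By covered share of H3K4me3, 7 and 6 windows reached the Apoa cluster, 5 and 3 the Apoe cluster, and 1581 and 959 Apob, male list first. For H3K27ac they were 27 and 8, 207 and 174, and 897 and 2601, in the same order. Many windows held no peak. Among windows of the Apoa width, 36.6% held an H3K36me3 island in the male list and 33.7% in the female list. These places describe the pooled lists. The windows contain other genes (Zpr1 and Bud13 beside Apoa5, Clptm1 beside Apoc2, Gm38955 upstream of Apoe). By gene order Sik3 lies next to Apoa1 and Tomm40 next to Apoe, and their starts were not placed.

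**Figure D2:**
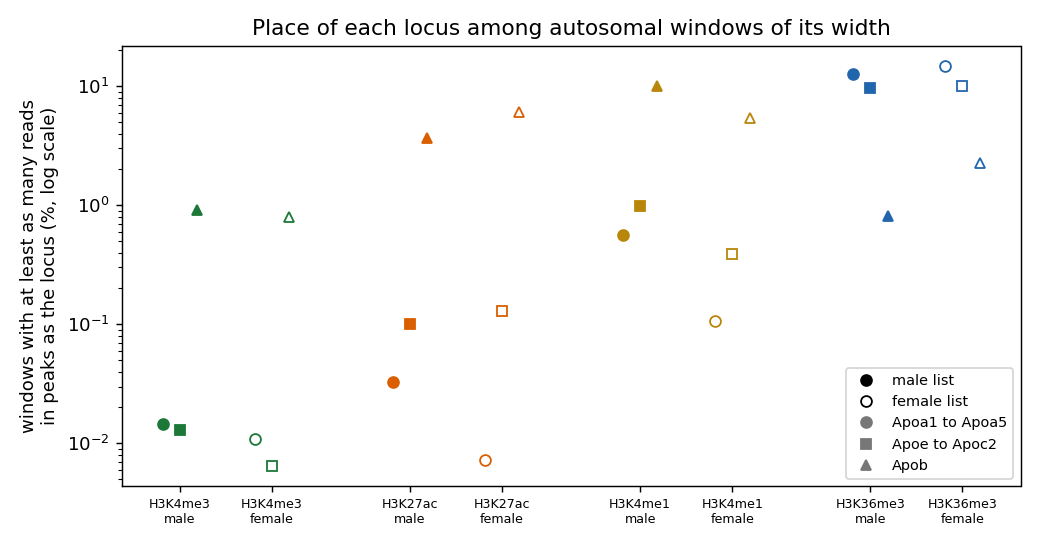
Share of autosomal windows of equal width (percent, log axis) with at least as many reads in peaks as each locus, for 4 marks, with filled symbols for the male list and open symbols for the female list. The Apoa and Apoe clusters lie lowest, which is closest to the top of the genome, for H3K4me3 and H3K27ac, and Apob lies lowest for H3K36me3.

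Apoa1, the gene of the main protein of high density lipoprotein, had a broad H3K4me3 domain in both sexes. In the male list it was 1 peak of 8061 bp, chr9:46036176-46044236, from -538 to 7522 bp of the start, with 2218 tags or 275 per kb. In the female list the same stretch was split into chr9:46036215-46039368, with 1040 tags or 330 per kb, and chr9:46039394-46044471, with 1940 tags or 382 per kb. Over all placed genes with a peak within 1 kb of the start, the median was 169 tags per kb in the male list and 173 in the female list. Tags per kb are raw and are not scaled between the sexes, so only the deposited ratios compare them. In the authors' deposited table the log2 ratio of male over female was -0.44 for the male peak (p = 2.099e-27), -0.18 for the first female peak (p = 0.009356) and -0.59 for the second (p = 5.046e-30), and none was called. The part of the domain farther downstream, on the side on which Apoc3 and Apoa4 lie, thus had a ratio farther toward females than the part over the Apoa1 start. Apoc3, the gene of the lipase inhibitor, lies between Apoa1 and Apoa4, and this domain was the H3K4me3 peak found between those starts in the male list.

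Apoa4, which encodes a protein of chylomicrons and high density lipoprotein, was the only placed member with a promoter H3K4me3 peak in 1 sex alone. The female list had an H3K4me3 peak over its start, chr9:46048578-46050398, with 181 tags or 99.4 per kb. The male list had none, and its nearest H3K4me3 peak ended 4692 bp away. The female peak was modest, since 47.1% of the peaks of the female list had fewer tags per kb. Of the placed genes with a female-list H3K4me3 peak within 1 kb of the start, 19.6% had fewer tags per kb. The authors' deposited table gave the Apoa4 peak a log2 ratio of -0.87 with p = 1.575e-06, short of a call. In whole liver, a mark on fewer cells and less mark per cell cannot be told apart. H3K4me1 over the Apoa4 start leaned the same way in the authors' deposited table, with log2 ratios of -0.71 for the male peak (p = 1.346e-21) and -0.65 for the female peak (p = 2.573e-36). H3K27ac covered the Apoa4 start in both lists, in the same peak as Apoa1.

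The H3K27ac peak shared by Apoa1 and Apoa4 was 24253 bp long in the male list, chr9:46027629-46051881, with 7838 tags or 323 per kb. In the female list it was 30752 bp long, chr9:46020200-46050951, with 8799 tags or 286 per kb. Over all placed genes with a promoter peak the median was 175 tags per kb in the male list and 124 in the female list. In the authors' deposited table the log2 ratio was -0.28 for the male peak (p = 2.103e-26) and -0.36 for the female peak (p = 6.37e-54). The single Apoa cluster peak farthest toward females lay upstream of it, from -18.6 to -16.8 kb of the Apoa1 start (chr9:46018132-46019903), in the female list alone and with 96 tags. Its log2 ratio in the authors' deposited table was -0.997 (p = 3.27e-05), just short of 1 in size and therefore not called.

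Apoa5, the gene of the lipolysis enhancer, shared its H3K4me3 peak with Zpr1, a neighbour that encodes a zinc finger protein. In the male list the peak was chr9:46076014-46082971, with 1875 tags or 269 per kb, and in the female list chr9:46075457-46082626, with 2299 tags or 321 per kb. H3K27ac there had 3306 tags or 335 per kb in the male list and 2221 tags or 234 per kb in the female list. The log2 ratios for H3K4me3 in the authors' deposited table were -0.30 for the male peak and -0.31 for the female peak, and for H3K27ac 0.05 for both. H3K4me1 covered the start in both lists, with 86.5 tags per kb in males and 141 in females.

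Along the Apoa cluster the deposited H3K27ac ratio ran from the female side to zero. In the male list of the authors' deposited table the log2 ratios, in order of position from upstream of Apoa1 to Bud13, were -0.38, -0.74, -0.63, -0.28, -0.22, -0.15, 0.05, 0.01 and 0.13. In the female list of the same table they were -0.49, -0.997, -0.36, -0.32, -0.22, -0.56, -0.18, 0.05, 0.00 and 0.13. All 6 male peaks and all 7 female peaks before Apoa5 were below 0, while all 3 peaks of each list from Apoa5 onward were at or above 0. This order was noticed in the values and has no test of its own, and the ratios of both lists at 1 site come from the same reads.

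Marks of opposite lean met at sites away from the starts. From -14.1 to -11.3 kb of the Apoa1 start the H3K4me3 peaks had log2 ratios of 0.39 in the male list and 0.28 in the female list of the authors' deposited table, against -0.63 for the male H3K27ac peak and -0.49 for the male H3K4me1 peak over the same stretch. From 28.0 to 29.8 kb past that start, between Apoa4 and Apoa5, the same table gave H3K4me3 log2 ratios of 0.50 in the male list and 0.44 in the female list, against -0.65 for male H3K4me1. These H3K4me3 peaks were weak, with 178 and 120 tags in the male list and 99 and 89 in the female list, upstream site first, and their deposited p-values lay between 0.018865 and 0.159845.

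**Figure D3:**
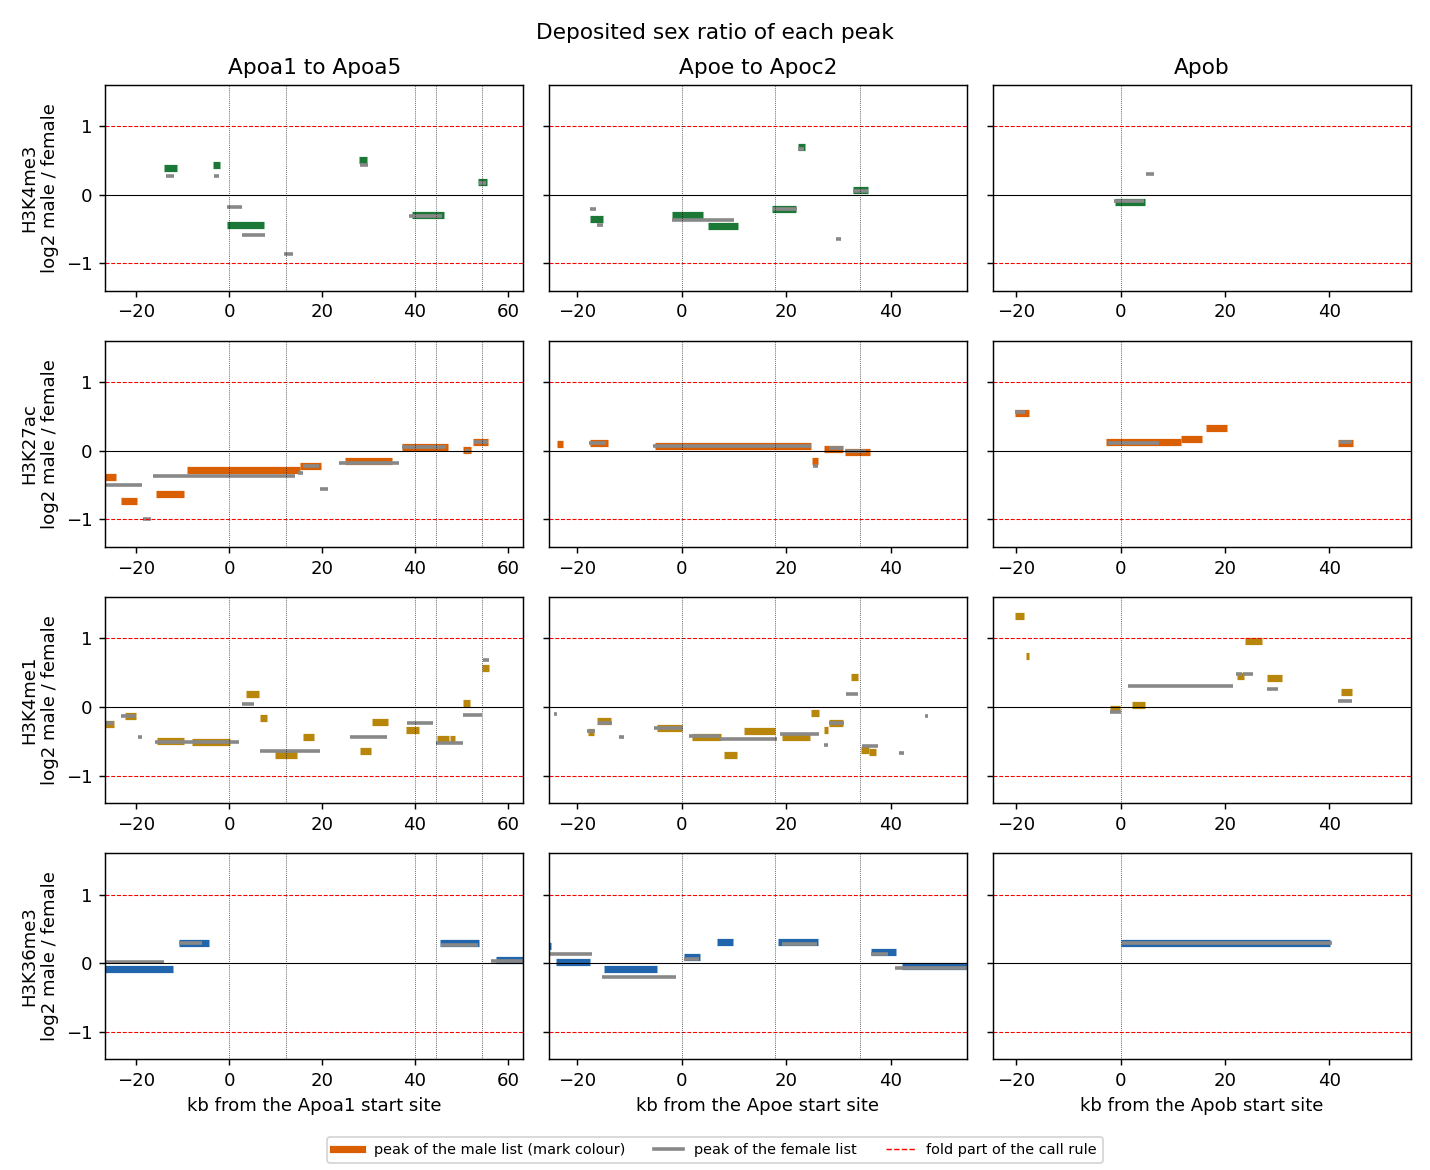
Log2 ratio of male over female signal in the authors' deposited table for each peak (vertical axis) by its position in kb from the Apoa1, Apoe or Apob start (horizontal axis), with thick coloured bars for the male list, thin grey bars for the female list, and dashed red lines at the fold that a call requires. H3K4me1 lies mostly below 0 in the clusters and above 0 at Apob, where 1 male-list peak at 1.33 passes the dashed line.

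H3K36me3 was absent from the starts of the Apoa genes. The nearest island was 4315 bp from the Apoa1 start in the male list and 5915 bp in the female list, 16529 bp from the Apoa4 start in males and 18129 bp in females, and 5308 bp from the first Apoa5 start in males and 5708 bp in females. The islands inside the window lay upstream of Apoa1, on the side of its neighbour Sik3, and around Zpr1 and Bud13. Of all 12603 placed genes, 1670 in the male list and 1890 in the female list had an H3K36me3 island within 1 kb of the start.

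Apoe, the gene of the remnant ligand, had an H3K4me3 peak at chr7:20280457-20286494 in the male list, with 1918 tags or 318 per kb. In the female list the peak was 11814 bp long, chr7:20274588-20286401, with 3697 tags or 313 per kb, and was wider than 99.98% of the peaks of that list. In the male list the same stretch held a second peak, chr7:20273897-20279555, from 5.0 to 10.6 kb downstream of the Apoe start, with 999 tags or 177 per kb. The female peak thus spanned what were 2 peaks in males, toward the side on which Apoc1, the gene of a small apolipoprotein, lies between Apoe and Apoc4. In the authors' deposited table the log2 ratios were -0.29 for the male Apoe peak (p = 1.868e-10), -0.46 for the second male peak (p = 3.905e-14) and -0.36 for the female peak (p = 2.325e-23).

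Apoc4, a minor apolipoprotein gene, had H3K4me3 at chr7:20262675-20267230 in the male list, with 1277 tags or 280 per kb, and at chr7:20262535-20267170 in the female list, with 1452 tags or 313 per kb. Both ratios in the authors' deposited table rounded to a log2 of -0.21. The peaks ran downstream of the Apoc4 start, from -420 to 4135 bp in males and from -360 to 4275 bp in females, on the side of Apoc2, the gene of the lipase cofactor. Next to them a weaker H3K4me3 peak, chr7:20260918-20262307 in the male list with 100 tags and chr7:20261141-20262382 in the female list with 57 tags, had log2 ratios toward males, 0.70 (p = 0.002791) and 0.66 (p = 0.00713), in the authors' deposited table. Which of these peaks belongs to Apoc2 was not resolved here, since its start was not placed. The predicted gene Gm44805 shares the Apoc4 start, so the peaks cannot be divided between them.

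A single H3K27ac peak ran from upstream of Apoe past Apoc4 in either sex. It was 29918 bp long in the male list, chr7:20259859-20289776, with 11002 tags or 368 per kb, and 30395 bp long in the female list, chr7:20259758-20290152, with 7384 tags or 243 per kb. The log2 ratio in the authors' deposited table was 0.07 in both. Unlike in the Apoa cluster, where the H3K27ac log2 ratios in the authors' deposited table spanned -0.997 to 0.13, those in the Apoe cluster stayed between -0.22 and 0.12.

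H3K4me1 leaned toward females through the Apoe cluster. Of its peaks, 12 of 13 in the male list and 13 of 14 in the female list of the authors' deposited table had a log2 ratio below 0, with medians of -0.36 in the male list and -0.37 in the female list. Over all H3K4me1 peaks, 37.1% of the male list and 57.9% of the female list were below 0. The Apoa cluster leaned likewise, with 12 of 15 male and 9 of 11 female H3K4me1 peaks below 0. The H3K4me1 peak of the Apoe cluster farthest toward females lay 8.1 to 10.6 kb downstream of the Apoe start, at -0.70 on the log2 scale of the authors' deposited table (p = 1.848e-11). H3K36me3 in this cluster was patchy, with 8 male islands and 6 female islands. Within 1 kb of the Apoe start it had 73.4 reads per kb in the male list and 65.0 in the female list. Near the Apoc4 start the male island, with 42.4 reads per kb, began 611 bp downstream, and in the female list the nearest island began 1.41 kb downstream.

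Apob, the gene of the structural protein of very low density lipoprotein, had the most tags per kb in both lists among the H3K4me3 peaks within 1 kb of a placed member start. It was chr12:7983501-7989139 in the male list, with 1895 tags or 336 per kb, and chr12:7983271-7988955 in the female list, with 1991 tags or 350 per kb. Of the placed genes with such a peak, 99.7% had fewer tags per kb in the male list and 98.2% in the female list. The log2 ratio in the authors' deposited table was -0.10 in either list, with p = 0.048866 for the male peak and 0.057869 for the female peak. H3K27ac at the start had 3120 tags or 219 per kb in the male list and 1800 tags or 184 per kb in the female list, and the authors' deposited table gave a log2 ratio of 0.12 for either list. The H3K27ac tags of this locus are written in the files with at most 3 significant digits.

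A single H3K36me3 island in each list ran downstream from near the Apob start. In the male list it was chr12:7984600-8024599, which began 116 bp past the start, with 4200 reads or 105 per kb, more per kb than 99.9% of the list. In the female list it was chr12:7984800-8024999, which began 316 bp past the start, with 3040 reads or 75.6 per kb, more than 99.7% of the list. In the authors' deposited table its log2 ratio was 0.29 in either list, with p = 6.27e-16 for the male island and 2.03e-15 for the female island. The size was far under the fold a call requires.

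Within the stretch of that H3K36me3 island the 2 enhancer marks were cut differently in the sexes. H3K4me1 in the female list was 1 peak of 20222 bp, chr12:7985854-8006075, with 2316 tags, while the male list had a peak of 2458 bp, chr12:7986633-7989090, with 215 tags, over that stretch. H3K27ac went the other way, with 2 peaks in the male list alone at 11.6 to 15.6 kb and at 16.4 to 20.4 kb past the start. The authors' deposited table gave the female H3K4me1 peak a log2 ratio of 0.30, the male one 0.03, and the 2 male-only H3K27ac peaks 0.18 (p = 0.231825) and 0.33 (p = 0.051135). These 2 H3K27ac peaks, present in 1 list alone, were therefore not called differences. The sign of the ratio at the long H3K4me1 peak was toward males although the peak was the longer one in females.

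The only peak called between the sexes in all the loci lay upstream of Apob. It was a male H3K4me1 peak at chr12:7964333-7966099, from -20.2 to -18.4 kb of the start, with 183 tags or 104 per kb, and no female H3K4me1 peak overlapped it. Its log2 ratio in the authors' deposited table was 1.33 (p = 2.845e-17). H3K27ac was present there in both lists, with 316 tags in the male list and 119 in the female list, and its log2 ratios were 0.55 (p = 0.0005063) and 0.57 (p = 0.001417) in the authors' deposited table, male list first. H3K4me3 and H3K36me3 had no peak there. A second male H3K4me1 peak, chr12:8008270-8011509, which began 23.8 kb past the start, came close to a call at 0.96 on the log2 scale of the authors' deposited table (p = 5.583e-15). The female peak over it had a log2 ratio of 0.49 there. IgG reads from 1 male library, a background control, lay at 1.47 times the autosomal density over the Apob window, 1.20 times over the Apoa cluster and 1.03 times over the Apoe cluster.

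At 4 of the 6 placed genes the male H3K4me1 peak ended close to the start site. It ended at 104 bp past the Apoa1 start, at -16 bp from the most upstream Apoe start, at 116 bp past the Apoc4 start and at -92 bp from the Apob start. In the female list the ends were at 2105 bp for Apoa1, 133 bp for Apoe, 528 bp for Apoc4 and 110 bp for Apob. At Apoa4, the gene without male H3K4me3, the male H3K4me1 peak ran across the start from -2305 to 2302 bp, and at Apoa5 from -1976 to 855 bp. This pattern was picked after the values were seen.

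**Figure D4:**
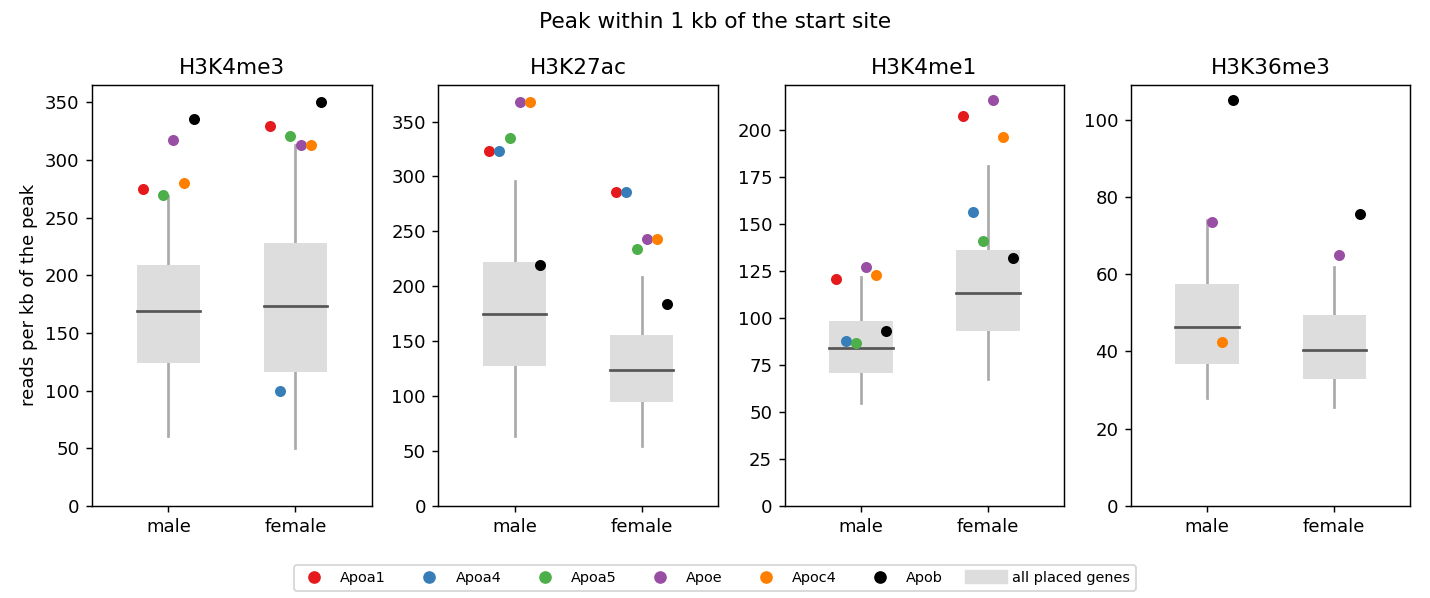
Tags or reads per kb (vertical axis) of the peak within 1 kb of the start of each placed member, in the male list (left) and the female list (right) of each panel, over all placed genes with such a peak (box from the 25th to the 75th percentile with the median, line from the 5th to the 95th). Apoa1 and Apoa4 share 1 H3K27ac peak, as do Apoe and Apoc4, and the Apoa4 point for H3K4me3, 99.4 in the female list, has no male partner. A member with no point had no peak.

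Counted over all loci, calls were 0 of 13 male and 0 of 17 female H3K4me3 peaks, where 4.96% of the whole male list and 2.59% of the whole female list were called. They were 0 of 20 male and 0 of 18 female H3K27ac peaks (2.6% and 3.63% of the whole lists), 1 of 36 male and 0 of 31 female H3K4me1 peaks (8.71% and 5.13%), and 0 of 13 male and 0 of 11 female H3K36me3 islands (0.592% and 0.457%). With so few peaks these counts cannot be set apart from the background shares. With a fold of 1.5 in place of 2 and the same p, 3 peaks leaned to males and 11 to females. Of the 3 toward males, 2 were male-list H3K4me1 peaks, the ones upstream and downstream of the Apob start named above (2 of 36, against 16.3% of the whole list), and 1 was a female-list H3K4me1 peak by Bud13 (1 of 31, against 5.9%). Of the 11 toward females, 5 were male-list H3K4me1 peaks (5 of 36, or 13.9%, against 3.94% of the whole list) and 1 was a female-list H3K4me1 peak (1 of 31, against 8.81%). The others were 2 male-list H3K27ac peaks (2 of 20, against 3.4%), 1 female-list H3K27ac peak (1 of 18, against 6.78%) and 2 female-list H3K4me3 peaks (2 of 17, against 3.17%). Of the 11, 8 lay in the Apoa cluster and 3 in the Apoe cluster. No peak of the loci met both the fold and the p toward males for H3K4me3 (8.1% of the male list and 3.96% of the female list did), H3K27ac (3.91% and 2.49%) or H3K36me3 (1.26% and 0.194%), or toward females for male-list H3K4me3 (2.44%) or for H3K36me3 (0.266% of the male list and 1.5% of the female list).

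A log2 ratio below 0 was held by 25 of 36 male and 23 of 31 female H3K4me1 peaks, against 37.1% of the male list and 57.9% of the female list in the authors' deposited table. For H3K4me3 it was 7 of 13 male and 10 of 17 female peaks (41.7% and 52.8% of the lists), for H3K27ac 8 of 20 male and 9 of 18 female peaks (51.6% and 62.2%), and for H3K36me3 3 of 13 male and 2 of 11 female islands (38.2% and 62.2%). By the authors' deposited table, H3K4me1 peaks in the loci had a median log2 ratio of -0.24 in either list, against 0.16 over the male list and -0.09 over the female list. The loci differed in this. Male list first, the same table gave medians of -0.33 and -0.23 at the Apoa cluster, -0.36 and -0.37 at the Apoe cluster, and 0.43 and 0.28 at Apob. At Apob 1 of 8 male and 1 of 6 female H3K4me1 peaks were below 0. The median log2 ratio of H3K36me3 over all the loci was 0.16 (male list) and 0.13 (female list), against 0.05 and -0.04 over the lists.

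Peaks with no partner in the other sex numbered 15. They were 0 male and 3 female peaks of H3K4me3 (8.96% of the male list and 18.4% of the female list had none), 3 male and 1 female of H3K27ac (21.2% and 11.6%), 2 male and 5 female of H3K4me1 (15.2% and 28.4%), and 1 male and 0 female of H3K36me3 (19.2% and 6.99%). Of these only the called H3K4me1 peak upstream of Apob was in the better-scoring 50% of its list, against 103 of all 159 peaks.

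Most other genes of lipoprotein metabolism carried H3K4me3 and H3K27ac at their promoters. Of 41 listed genes 16 had a placed start, and of those 15 had H3K4me3 within 1 kb in the male list and 15 in the female list, and all 16 had H3K27ac in both, where over all placed genes 47.6% in males and 48.3% in females had H3K4me3 and 50.6% and 49.5% had H3K27ac. The gene without H3K4me3 was Saa1, an acute-phase apolipoprotein, and the gene with H3K27me3 was Vldlr, the very low density lipoprotein receptor. Most H3K4me3 tags in the male list were at A1cf, a cofactor of the editing of Apob mRNA (1518 male and 723 female tags), Fabp1, a fatty acid binding protein (1486 and 1416), and Apoh (1103 and 899), and in the female list Apoa2, the second protein of high density lipoprotein, had 1100 male and 1235 female tags. None of the 16 had a called peak, where 4.02% of all placed genes did, and with so few genes this cannot be set apart from that share. The H3K4me3 ratios farthest toward males among the 16, in the authors' deposited table, were those of A1cf, with log2 ratios of 0.79 in the male list and 0.77 in the female list, and of Apobec1, the editing enzyme itself, with 0.83 in the male list and 0.78 in the female list. Apobec1 was named after its values were seen. Vldlr leaned to females in the same table, with H3K27ac log2 ratios of -0.93 in either list.

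Most genes of regulators that act on apolipoprotein promoters were marked likewise. Of 22 listed genes 16 were placed, and 14 had H3K4me3 in the male list and 15 in the female list. The gene with H3K27me3 within 1 kb of the start was Nr2f1, in both lists, and it had H3K4me3 and H3K27ac there in the female list alone. Foxa1 had 2018 male and 1668 female H3K4me3 tags, Hnf4a 1823 and 2053, Cebpa 1758 and 2102 and Onecut1 1657 and 2757, male list first. Called peaks were found at 2 of the 16, or 12.5%, against 4.02% of all placed genes, and both calls were toward males. With so few genes this cannot be set apart from the background share, which also includes genes with no peak near the start. At Nr5a2 the called H3K4me3 peak was in the female list, at 1.23 on the log2 scale of the authors' deposited table, against 0.027 for the male-list peak. At Onecut1 the male-list H3K4me1 peak was called at 1.01 in the authors' deposited table, against -0.036 for the female-list peak, and the H3K4me3 log2 ratio was -0.75 in either list. The peak given for each list is the one with most tags among those nearest the gene's placed starts. It was picked in each list separately, so the peaks of the 2 lists can differ in site or extent.

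The tissue label was checked against cell type markers with a placed start. All 3 hepatocyte genes placed, Alb, Tat and Fgb, had H3K4me3 and H3K27ac in both lists. Alb, serum albumin, had 1117 male and 341 female H3K4me3 tags and a call toward males, with log2 ratios of 1.46 and 1.42 in the authors' deposited table. Of the genes of other cell types, 0 of 2 intestine, 0 of 2 macrophage, 0 of 2 lymphocyte and 0 of 2 neuron genes had H3K4me3 in either sex. Weak H3K4me3 stood at Lrat of stellate cells (62 male and 36 female tags), Epcam of bile duct cells (60 and 38) and Stab2 of endothelium (32 in males, no peak in females), and no muscle marker was placed. H3K27ac was present at Stab2 (109 male and 107 female tags) and at 1 of the 2 lymphocyte genes, Ptprc (79 male and 57 female tags), and at 0 of 2 intestine, 0 of 2 macrophage and 0 of 2 neuron genes. Of the 5 intestine markers listed 2 were placed, and 1 of them, Lct, had an H3K36me3 island within 1 kb of its start in the female list alone. The part of other cell types in the values of the loci was not tested.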

How the data were processed

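The tissue was whole liver of CD-1 mice, with 34 histone libraries. The deposited peak files were identical within each mark and sex, so they were read as 12 pooled lists, and reads inside peaks ranged from 1526754 to 20459697 per list. Bowtie, SICER 1.1 and build mm9 are named in the submitters' processing notes. Per the labels, SICER windows and gaps were 200 and 800 bp for H3K36me3 and 400 and 2400 bp for H3K27me3 and H3K9me3. For the MACS-type caller of the other marks the version is not given in the sources used.

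Tag and read counts are raw counts deposited by the authors, and some H3K27ac tags are written with 3 significant digits. Per the file headers, MACS-type peaks have a score (the log10 of the p-value times -10), a fold over background and an FDR in percent, and an island has a fold change and a p-value against control reads. These folds and scores are the authors' own, and scores only ranked peaks within a list. The log2 ratio of the sexes, its p-value and the call are from the authors' deposited table, which does not say how ratios were normalised. Their p-values rest on pooled libraries, so variation between animals is not in them.

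Computed here, in Python 3.11.15 with numpy 2.4.6, scipy 1.17.1 and matplotlib 3.10.9, were overlaps of 1 bp or more, the covered share, counts per kb and the place of each locus among tiled windows, where a peak that crossed a window's edge counted with its reads multiplied by the share of its length inside. Start sites were placed by exact 35-base matches of RefSeq promoters (GRCm38.p6) to aligned IgG reads with mm9 positions. This placed 14292 of 31396 autosomal promoters (12603 genes), 27 promoters with reads that disagreed were dropped, and the placement was tested on simulated data. Coordinates were not converted between builds. A mark was counted at a promoter when a peak lay within 1 kb.

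The named genes were all members, their nearest peaks, every called peak, the sex-only peaks of the better-scoring 50%, any silent island, and, of each other list, the genes with a called peak and the 3 with most H3K4me3 tags. Members, lists and tests were chosen with earlier results of these data known. No test was run here. Alternatives were peak overlap, wider windows, the better-scoring 50% of each list, a fold of 1.5, centred ratios and other distances.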

Additional observations from a re-analysis of the deposited data

How the results depend on the processing

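The called peak upstream of Apob kept its call after centring and in the better-scoring 50% of its list, and no other peak was called under these settings. No paired analysis was possible because the lists are pooled over libraries and carry no replicate numbers, and for the same reason no library could be left out. With a fold of 1.5, calls numbered 3 toward males and 11 toward females. Restricted to the better-scoring 50%, the loci held 8 male H3K36me3 islands, and 9 H3K4me3, 11 H3K27ac, 19 H3K4me1 and 6 H3K36me3 peaks of the female lists. The covered share was then 17.7% male and 17.2% female for H3K4me3, 50.1% and 47.0% for H3K27ac, 31.4% and 42.5% for H3K4me1, and 39.8% and 35.8% for H3K36me3. In windows widened by 20 kb the shares were 16.0% male and 16.1% female for H3K4me3, 46.1% and 42.8% for H3K27ac, 33.4% and 44.9% for H3K4me1, and 51.2% and 50.8% for H3K36me3, and H3K27me3 then had 1 island in each list, at 2.27% male and 3.03% female. Centred on peaks shared by the sexes, the median log2 ratios were -0.14 male and -0.22 female for H3K4me3, 0.10 and 0.058 for H3K27ac, -0.31 and -0.28 for H3K4me1, and 0.15 and 0.16 for H3K36me3. The female H3K27ac median, -0.00 as deposited, thus changed sign. Asked over the start site itself, H3K36me3 was at 1 of 6 members in the male and 1 of 6 in the female list. With starts placed by at least 2 read positions, H3K4me3 was at 100% of 8 lipoprotein genes in either list, and H3K4me3 and H3K27ac were at 100% of 8 regulators in the female lists. This check of regulators was added after the data were seen. With windows tiled from another starting point, 0.663% of windows reached the Apoa cluster for male H3K4me1. The cause of these shifts was not tested, except that fewer peaks or wider windows change a share by construction. No library depth is given, so reads per kb cannot be compared between sexes.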
